A study of Mus musculus with 4 samples.

Results

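The transcripts of interleukin-33 (Il33), of its receptor chain ST2 (Il1rl1) and of the shared receptor chain (Il1rap) were followed through the stromal cells and leukocytes of mouse lower limb vessels, in 4 single-cell RNA-seq libraries. These 3 genes, of the 30406 listed for every library, are the ligand and both receptor chains of 1 signalling pair, and all 3 were detected. They were chosen by a measured value, since earlier results of these libraries had shown Il33 among the largest rises between wild-type (WT) and TNF-transgenic (TNF-Tg) mice in 1 stromal class. The rise of Il33 is therefore given as a description, without a test.

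IL-33 is an alarmin, a cytokine of the IL-1 family that is kept in the nucleus of barrier, endothelial and fibroblastic cells and is set free when cells are damaged. It binds ST2, which pairs with the accessory chain encoded by Il1rap, and the pair signals through MyD88 to NF-κB. Group 2 innate lymphoid cells (ILC2s), mast cells and basophils are its classical receivers, and a soluble form of ST2 made from the same gene can capture the ligand.

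The tissue was the popliteal lymphatic vessels (PLVs) with the adjacent superficial saphenous vein (SSV), pooled from 3 mice for each library, and all mice were on a C57BL/6J background. The tdT1 and tdT2 libraries held tdT+ cells sorted from male and female Cspg4-Cre;tdTomato mice more than 8 months old, in which the reporter marks cells with a history of Cspg4 expression. Male mice without a reporter, 9 months old by the sample labels, gave the WT and TNF-Tg libraries, whose cells were enriched by a scatter gate. Each of these conditions is 1 library, so that the effect of the transgene cannot be told apart from the handling of a library, no p-value can be given, and the intervals below (95%, exact) cover counting error only.

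The libraries held 1504 (tdT1), 454 (tdT2), 5488 (WT) and 3391 (TNF-Tg) cells, with median depths of 6393.5, 4932.5, 12660 and 10605 unique molecular identifiers (UMIs) per cell. Between 2 and 8 barcodes of each library also occurred in another one. In tdT1, 516 cells had more than 10% mitochondrial UMIs, against 1 (tdT2), 252 (WT) and 65 (TNF-Tg). Levels below are UMIs of a gene per 1000000 UMIs (CPM), taken over all cells of a class within a library.

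Cells were clustered without the 3 genes and their pathway. The study's markers of lymphatic muscle cells (LMCs), such as Myoc and Pi16, and of venous smooth muscle cells (VSMCs), such as Fmo2 and Cxcl14, each led a cluster, with 9 of 9 markers among its leading genes. The defining contractile genes were at or near 0 in the cells of both clusters. The study also reported limited Acta2, Myh11 and Tagln, and low labelling in Acta2 reporter mice. Its labels rested on Cald1, Tpm1 and Pdgfrb, on muscle-related transcription factors and on a Pdgfrb reporter. It could not fully exclude that these cells are myofibroblasts from surrounding tissue. Myh11, the smooth muscle myosin, had 0 UMIs in the 1383 WT cells with LMC markers and 1 UMI in the 616 WT cells with VSMC markers, and Acta2, smooth muscle actin, stood at 0.304 and 0.309 CPM. The 6 contractile markers together summed to 37.1 (WT) and 30.7 CPM (TNF-Tg) in the first cells, nearly all from Des, and to 2.47 and 9.76 CPM in the second. Dcn, a fibroblast proteoglycan, stood at 17440 and 25205 CPM there. These cells are therefore called Myoc/Pi16 and Fmo2/Cxcl14 stromal cells after their leading genes, and another, unnamed stromal cluster is called Col5a3/Col4a1 cells. Leukocyte classes are called "-like", since marker genes alone define them.

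Il33 (ENSMUSG00000024810, chr19:29925114-29960718 of GRCm38, plus strand, 5 annotated transcripts) was a transcript of the stromal cells, and it was higher in the TNF-Tg library in each of the 3 stromal classes. The stromal clusters held 96.2% of the Il33 UMIs of WT and 95.8% of those of TNF-Tg, and cells in clusters of predicted doublets held a further 2.51% and 3.36%. In the leukocyte classes together, Il33 was found in 6 of 2858 WT cells (0.210%) and in 19 of 2093 TNF-Tg cells (0.908%), at median depths of 11968 and 10370 UMIs. That share is the background for the shares of stromal cells given below. Ptprc, the leukocyte antigen CD45, stood at 3.13 (WT) and 3.25 CPM (TNF-Tg) in Myoc/Pi16 cells and at 5.10 and 4.02 CPM in Fmo2/Cxcl14 cells.

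In Myoc/Pi16 cells, Il33 stood at 95.7 CPM (95% interval 89.1 to 103) in tdT1, at 57.1 CPM (38.6 to 81.6) in tdT2, at 38.6 CPM (36.1 to 41.2) in WT and at 259.6 CPM (248 to 272) in TNF-Tg. TNF-Tg was the highest and WT the lowest of the 4 libraries, and the interval of TNF-Tg overlapped none of the others. The level was 6.73-fold higher in TNF-Tg than in WT (log2 2.75, interval 2.63 to 2.87), the 49th largest rise of 12040 genes. Il33 had a UMI in 413 of 1383 WT cells (29.9%) and in 260 of 511 TNF-Tg cells (50.9%), and these shares were 9.93% and 28.7% once each cell was thinned to 3000 UMIs, with 3 cells left out in each library.

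In Fmo2/Cxcl14 cells, the level was 28.7 CPM in tdT1, 49.2 CPM in tdT2, 13.6 CPM (10.9 to 16.8) in WT and 436 CPM (418 to 454) in TNF-Tg. WT was again the lowest library. The level was 32.0-fold higher in TNF-Tg than in WT (log2 5.0, interval 4.69 to 5.33), the 14th largest rise of 11019 genes. A UMI was found in 47 of 616 WT cells (7.63%) and in 295 of 495 TNF-Tg cells (59.6%), or in 2.68% and 44.3% after thinning, which left out 93 and 77 cells. Scaling by TMM, a trimmed mean over genes, raised every ratio in these cells by 0.18 on the log2 scale and put Il33 at 5.18.

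In Col5a3/Col4a1 cells, led by collagen genes of the basement membrane, Il33 stood at 12.3, 9.23 and 9.95 CPM in tdT1, tdT2 and WT and at 161 CPM (142 to 182) in TNF-Tg, 16.2-fold above WT. Among the genes of the 3 classes with at least 20 UMIs over both libraries, 3.97%, 3.94% and 4.44% were at least 2-fold higher in TNF-Tg with an interval that left out 1. Il33 belonged to that share in each class, which the choice of the gene had used in the Fmo2/Cxcl14 cells. The Il33 plot by cell class shows these levels beside those of the leukocytes.

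**Figure D1:**
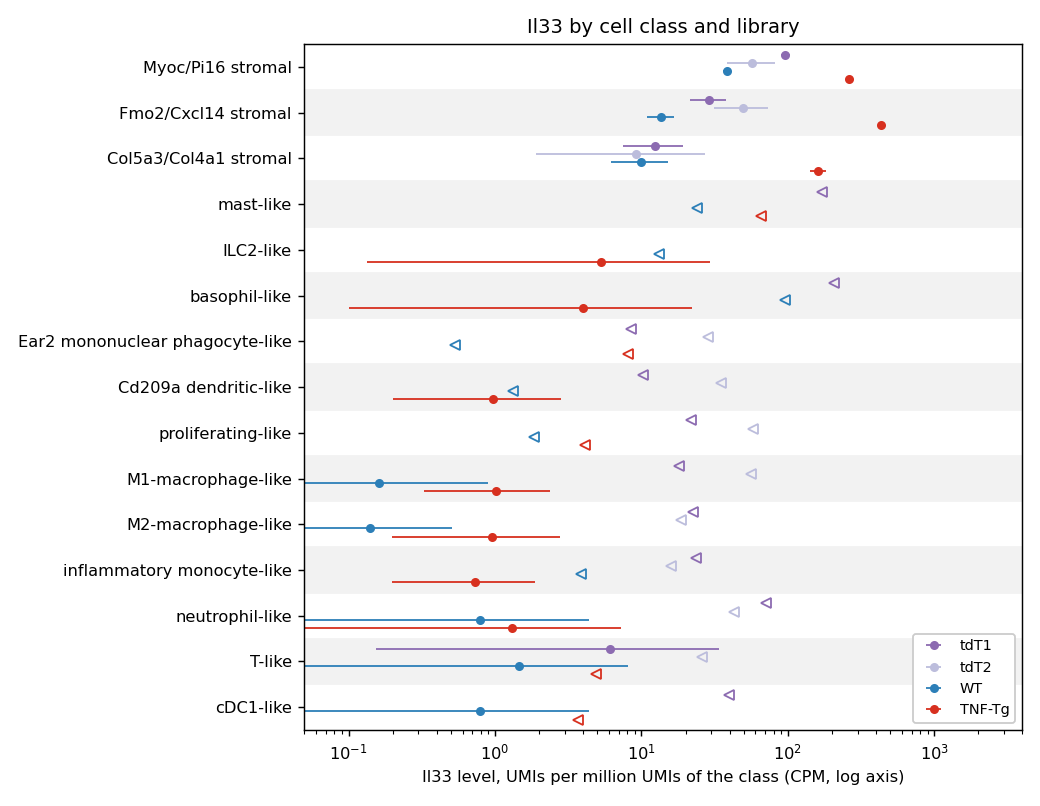
Il33 in CPM on a log axis by cell class in tdT1, tdT2, WT and TNF-Tg, with points for summed counts, bars for 95% Poisson intervals and open triangles for the level that 3 UMIs would give where the count was 0. In the Fmo2/Cxcl14 cells TNF-Tg stands at 436 CPM and WT at 13.6 CPM, while the leukocyte classes stay near the lower end.

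The order of the stromal classes differed between the libraries. In WT, Il33 was 2.84-fold higher in Myoc/Pi16 than in Fmo2/Cxcl14 cells (interval 2.28 to 3.57), and in tdT1 it was 3.33-fold higher (2.51 to 4.51). In tdT2 the ratio was 1.16 with an interval of 0.656 to 2.07, so that the order was not resolved at this depth. In TNF-Tg, Fmo2/Cxcl14 cells were above Myoc/Pi16 cells by 1.68-fold (1.58 to 1.78). The intervals of Fmo2/Cxcl14 and Col5a3/Col4a1 cells overlapped in WT. The log2 rise was larger in Fmo2/Cxcl14 than in Myoc/Pi16 cells by 2.25 (counting interval 1.92 to 2.58). The rise in Fmo2/Cxcl14 cells had been used to choose the gene, so this difference is a description only, and its interval is no support.

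**Figure D2:**
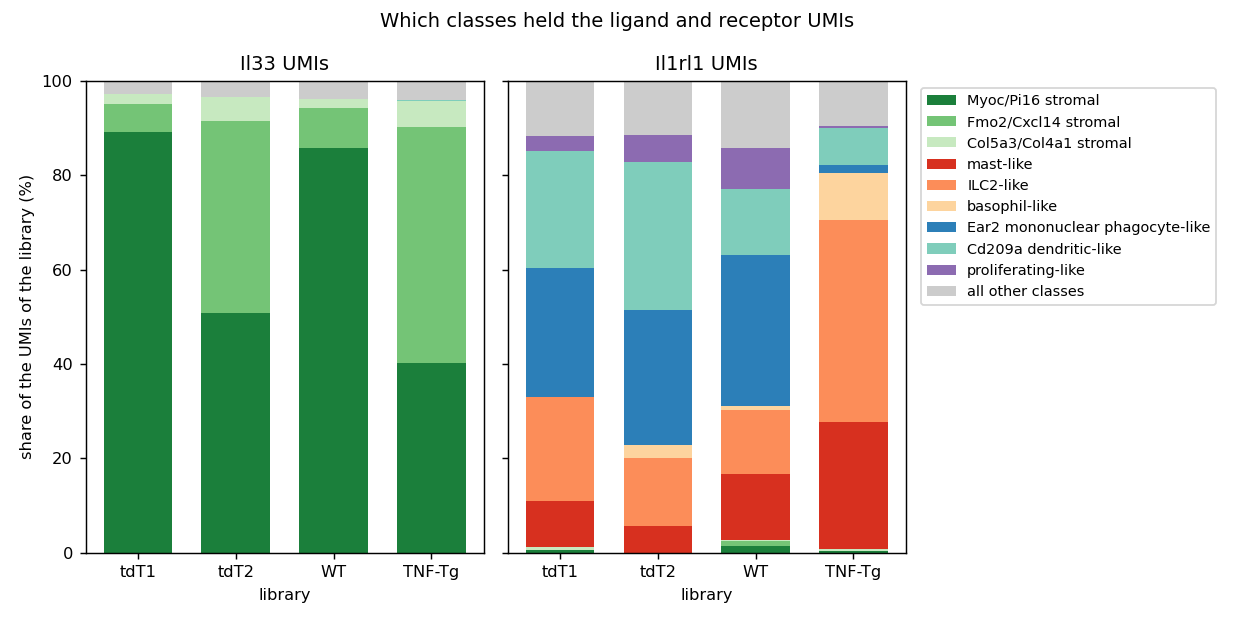
Share of the UMIs of Il33 and of Il1rl1, in percent of each library's UMIs of that gene, held by each group of cell classes in the 4 libraries. Fmo2/Cxcl14 cells hold 8.49% of the Il33 UMIs of WT and 50.01% of those of TNF-Tg. The number of cells captured in each class enters these shares.

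The tdT+ replicates differed by more than their counting error in Myoc/Pi16 cells, and their intervals overlapped in the other stromal classes. The mean was 76.4 ± 27.3 CPM (SD, n = 2) in Myoc/Pi16, 39.0 ± 14.5 CPM in Fmo2/Cxcl14 and 10.8 ± 2.20 CPM in Col5a3/Col4a1 cells. These libraries differed from WT in sort, sex and, for tdT1, sequencer, and no ratio to WT was taken. Every tdT+ value lay below the TNF-Tg level of its class.

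Il33 counts were uneven within a class. In TNF-Tg, 72 of 495 Fmo2/Cxcl14 cells (14.5%) and 60 of 511 Myoc/Pi16 cells (11.7%) held at least 10 Il33 UMIs, up to 91 and 58 in a cell. In WT, 0 Fmo2/Cxcl14 cells and 2 Myoc/Pi16 cells did so, and the highest counts were 7 and 11. The tenth of the TNF-Tg Fmo2/Cxcl14 cells with the most Il33 held 57.2% of the UMIs of the class. In Col5a3/Col4a1 cells of TNF-Tg that share was 86.4%, with a highest count of 95 UMIs in a cell, so that this level rests on few cells.

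A finer clustering (resolution 1.0) divided the Myoc/Pi16 cells into parts with different Il33 levels. Cells led by Dkk2, Edn1 and Myoc had 32.4 CPM in WT against 89.3 CPM in TNF-Tg, a 2.76-fold difference. Cells led by Mrgprg, Aldh1a3 and Dact2 had 73.3 and 175 CPM, a 2.38-fold difference, and the highest Il33 of any stromal cluster in WT and in tdT1. Cells led by Cyp2f2, Saa3 and Chl1, which carried fewer than 3 LMC markers among their leading genes, had 15.0 CPM in 389 WT cells and 467 CPM in 155 TNF-Tg cells, a 31.1-fold difference. That last value was close to the 31.2-fold difference of the main Fmo2/Cxcl14 cluster (14.0 and 438 CPM).

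The size of the rise in Myoc/Pi16 cells thus depended on where their border was drawn. Without the Cyp2f2/Saa3 cells the log2 ratio was 1.38 in place of 2.75. When libraries were merged without integration, 638 TNF-Tg stromal cells formed a cluster with Il33 at 421 CPM, and the log2 ratios of the cells that remained in the Myoc/Pi16 and Fmo2/Cxcl14 classes were 0.71 and 2.74. Over all stromal clusters together, which do not depend on such borders, Il33 rose from 31.6 CPM in 2140 WT cells to 315 CPM in 1119 TNF-Tg cells, 9.98-fold (log2 3.32, interval 3.22 to 3.42), where 4.91% of genes were called higher. The mix of classes captured enters this value. Myoc/Pi16 and Fmo2/Cxcl14 cells numbered 1383 and 616 in WT, against 511 and 495 in TNF-Tg.

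**Figure D3:**
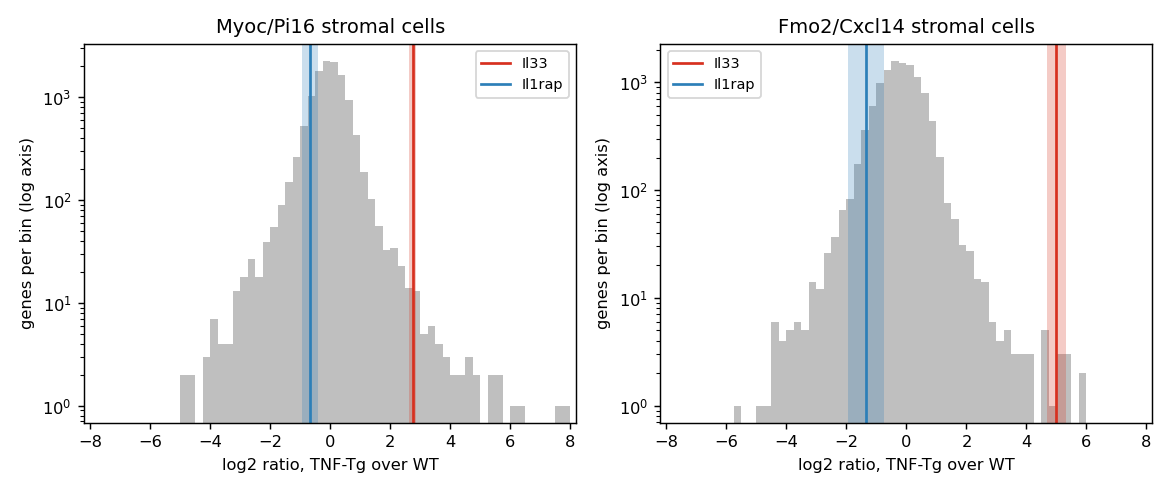
Number of genes (log axis) per bin of 0.25 in the log2 ratio of TNF-Tg over WT, in Myoc/Pi16 and in Fmo2/Cxcl14 cells, with lines for Il33 and Il1rap and shading for their intervals. Il33 stands at 2.75 and 5.0, to the right of nearly all genes, and Il1rap at -0.66 and -1.34.

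Other genes of the pathway were read from 5 lists with 49 genes in all. A member counted as higher or lower where it differed at least 2-fold with an interval that left out 1, as did 3.97% (higher) and 4.53% (lower) of all genes in Myoc/Pi16 cells. Without regard to the interval, 4.15% of the 12040 genes of these cells were at least 2-fold higher and 5.92% at least 2-fold lower, with a median log2 ratio of -0.03. In the Fmo2/Cxcl14 cells 4.21% were higher and 12.7% lower of 11019, with a median of -0.21, and under TMM scaling the share of higher among all 2-fold calls there moved from 24.8% to 44.0%.

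Of the genes that carry the signal from the receptor, 1 of 15 measured in Myoc/Pi16 cells and 1 of 13 in Fmo2/Cxcl14 cells was at least 2-fold higher, and 0 were lower. It was Myd88, the adaptor of the IL-1 receptor family, at 20.7 CPM in WT against 43.6 CPM in TNF-Tg and at 19.5 and 41.7 CPM. The medians of the list were -0.15 and -0.55.

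Of the 10 other IL-1 family ligands and antagonists on the list, 6 were found under the listed symbols and 3 reached 20 UMIs in each class. Older symbols of the rest were not searched. None of these differed 2-fold in Myoc/Pi16 cells (median -0.18). In Fmo2/Cxcl14 cells (median -0.79) Il18bp, the secreted inhibitor of IL-18, went from 4.95 to 10.5 CPM and Il18 from 26.6 to 13.2 CPM. The log2 ratio of Il18 was -1.01, and -0.83 under TMM scaling.

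Of the other receptors of the family, 4 were measured in Myoc/Pi16 and 3 in Fmo2/Cxcl14 cells (medians -0.29 and -0.84). Il18r1, a chain of the IL-18 receptor, went from 3.91 to 1.13 CPM in Myoc/Pi16 cells. Il1r2, the decoy receptor of IL-1, went from 359 to 169 CPM in Fmo2/Cxcl14 cells, a log2 ratio of -1.09 that was -0.91 under TMM scaling.

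The other alarmins stood apart from Il33. Tslp, an epithelial and stromal alarmin, had 33.9 CPM in WT against 27.9 CPM in TNF-Tg in Myoc/Pi16 cells, and 15.1 and 14.3 CPM in Fmo2/Cxcl14 cells. Hmgb1, a nuclear protein that acts as an alarmin outside the cell, had 488 and 654 CPM, and 519 and 759 CPM. None of these reached a 2-fold difference, and the list medians were 0.07 and 0.24.

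Of the 14 genes of the type 2 response that IL-33 is known to start, 4 were measured in each stromal class (medians -1.10 and -0.33). Il6 was higher, from 2.30 to 15.1 CPM in Myoc/Pi16 and from 3.25 to 20.7 CPM in Fmo2/Cxcl14 cells, and Il4ra, the IL-4 receptor chain, went from 15.0 to 30.3 CPM in Myoc/Pi16 cells. Ccl24, an eosinophil chemokine, was lower in Myoc/Pi16 cells, at 2.00 and 0.141 CPM, and in Fmo2/Cxcl14 cells, at 2.78 and 0.956 CPM on 18 and 5 UMIs. The latter log2 ratio was -1.54 (-3.32 to -0.06), and under TMM scaling it was -1.36 (-3.15 to 0.12) and no longer counted as lower. Retnla, a gene of alternatively activated macrophages, went from 28.8 to 3.11 CPM in Myoc/Pi16 cells. Retnla also marks the Ear2 phagocytes, which numbered 304 in WT and 24 in TNF-Tg, and the part of their free RNA in this value was not tested.

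Il1rl1 (ENSMUSG00000026069, chr1:40429570-40465415 of GRCm38, plus strand, 5 annotated transcripts) was mainly a transcript of a few leukocyte classes. It has transcripts that begin at start sites 10059 bases apart, and transcripts from these starts are known to encode the membrane-bound and the soluble receptor. The libraries count 3′ ends per gene and do not tell them apart. The 250 bases before each RefSeq start (GRCm38.p6, plus strand) are shown because the receiver cells below differ in their GATA factors. Capitals mark GATA preceded by A or T and followed by A or G, on either strand.

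Il1rl1 upstream start, chr1:40429320-40429569: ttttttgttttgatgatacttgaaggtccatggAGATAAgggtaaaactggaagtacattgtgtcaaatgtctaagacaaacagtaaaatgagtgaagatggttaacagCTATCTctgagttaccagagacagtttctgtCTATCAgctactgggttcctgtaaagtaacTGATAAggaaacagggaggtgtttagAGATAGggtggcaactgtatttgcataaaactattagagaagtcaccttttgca

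Il1rl1 downstream start, chr1:40439379-40439628: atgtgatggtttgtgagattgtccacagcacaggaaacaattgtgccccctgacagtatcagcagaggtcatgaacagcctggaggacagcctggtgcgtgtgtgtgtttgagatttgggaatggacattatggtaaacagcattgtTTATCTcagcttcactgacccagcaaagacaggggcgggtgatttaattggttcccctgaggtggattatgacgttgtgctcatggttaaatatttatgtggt

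The upstream window held 5 such GATA words and the downstream window 1. Of the 32851 mouse windows of this length, 26.5% held at least 1 and 14 held at least 5. This comparison took no account of base composition, and G or C made up 37.6% of the upstream and 46.4% of the downstream window. The matching windows of Il33 and Il1rap held 0, and the NF-κB word GGGANNTTCC was found in none of the windows of the 3 genes, against 1.21% of all windows. A word is a description of the sequence and not a binding site.

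The highest Il1rl1 levels were those of mast-like and ILC2-like cells. In mast-like cells Il1rl1 stood at 855 CPM in 8 cells of tdT1, at 1516 CPM in 2 cells of tdT2, at 1306 CPM (1114 to 1522) in 100 cells of WT and at 1349 CPM (1034 to 1729) in 19 cells of TNF-Tg. The WT and TNF-Tg intervals overlapped, and the log2 ratio was 0.05 (-0.40 to 0.48). It was 0.79 without 2 predicted doublets that held 19310 of the 45958 UMIs of the TNF-Tg cells, 1.28 in libraries merged without integration, and 1.07 as a mean over cells. It was -0.21 (-0.65 to 0.22) under TMM scaling and -1.66 after thinning to 3000 UMIs, which left 6 WT and 3 TNF-Tg cells, so that neither its direction nor its size was settled. Markers of other cells differed between these sums. The 7 neutrophil markers summed to 3783 CPM in WT against 21.8 CPM in TNF-Tg, and the 7 inflammatory monocyte markers to 71.7 against 2285 CPM. Nearly all of the 2285 CPM came from Plac8, at 2241 CPM in 4 of 19 cells. Ly6c2 and Ms4a4c had 0 UMIs in both libraries, so that sum does not show monocyte RNA as a set. Mcpt8, a basophil protease, went from 15.9 to 2568 CPM, the latter in 3 cells, and Mcpt4, a mast cell protease, from 37118 to 16123 CPM. The part of these differences in the ratio was not tested. These cells were shallow, with median depths of 996.5 and 1007 UMIs, and Il1rl1 was found in 60 of 100 and in 14 of 19.

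In ILC2-like cells Il1rl1 stood at 1256 CPM in 3 cells of tdT1, at 294 CPM in 3 cells of tdT2, at 704 CPM (599 to 822) in 25 cells of WT and at 523 CPM (425 to 637) in 30 cells of TNF-Tg. WT was above TNF-Tg by 1.35-fold, with a log2 ratio of -0.43 (-0.81 to -0.06). Under TMM scaling it was -0.24 (-0.62 to 0.13) and the interval included 0, and 9.05% of the genes of the class were called lower. Il1rl1 had a UMI in 24 of 25 WT cells, against 27 of 30 TNF-Tg cells, and thinning to 3000 UMIs gave 87.5% and 76.7%. At full depth this was the class with the most regular detection of the receptor in WT and TNF-Tg. Its cells were deeper than the mast-like cells, with medians of 8499 UMIs in WT and 5766 UMIs in TNF-Tg. Thinned to 1000 UMIs, Il1rl1 was found in 13 of 25 ILC2-like and 30 of 49 mast-like cells in WT. The counts were 14 of 30 and 6 of 10 in TNF-Tg, so that the lead was not kept at equal depth.

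The 61 ILC2-like cells took their label from Gata3, Il7r and Klrg1, so that finding Gata3 in them cannot test that label. Gata3, the factor that defines type 2 lymphoid cells, had a UMI in all 61 cells. It stood at 709 CPM in WT against 597 CPM in TNF-Tg. Cd3e, a chain of the T cell receptor complex, had a UMI in 0 of the 61 cells. Trbc2, a T cell receptor constant segment that innate lymphoid cells can also transcribe, was found in 52. Il5, an eosinophil growth factor, had 52.8 and 47.5 CPM, Areg, a repair factor, 74.8 and 127 CPM, and Csf2 247 and 148 CPM, each on 9 to 56 UMIs. Il13 had 1 and 0 UMIs.

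Basophil-like cells carried less of the receptor. Il1rl1 stood at 285 CPM (9 UMIs in 7 cells) in WT and at 91.7 CPM (23 UMIs in 62 cells) in TNF-Tg, a log2 ratio of -1.64 (-2.80 to -0.34) that TMM scaling moved to -1.01 (-2.18 to 0.29), while 6.26% of genes were called lower. The mast-like and basophil-like cells expressed Gata2, at 820 and 849 CPM in mast-like cells and at 507 and 741 CPM in basophil-like cells, while ILC2-like cells had 1 and 0 UMIs of it. Gata2 is among the markers that named the basophil-like cells, so that finding it there cannot test that label. Il4 was found in mast-like and basophil-like cells, at 319 and 218 CPM and at 285 and 319 CPM. It also had a UMI in 8 of 25 WT and 6 of 30 TNF-Tg ILC2-like cells. Il6 stood at 348 and 307 CPM in basophil-like cells.

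**Figure D4:**
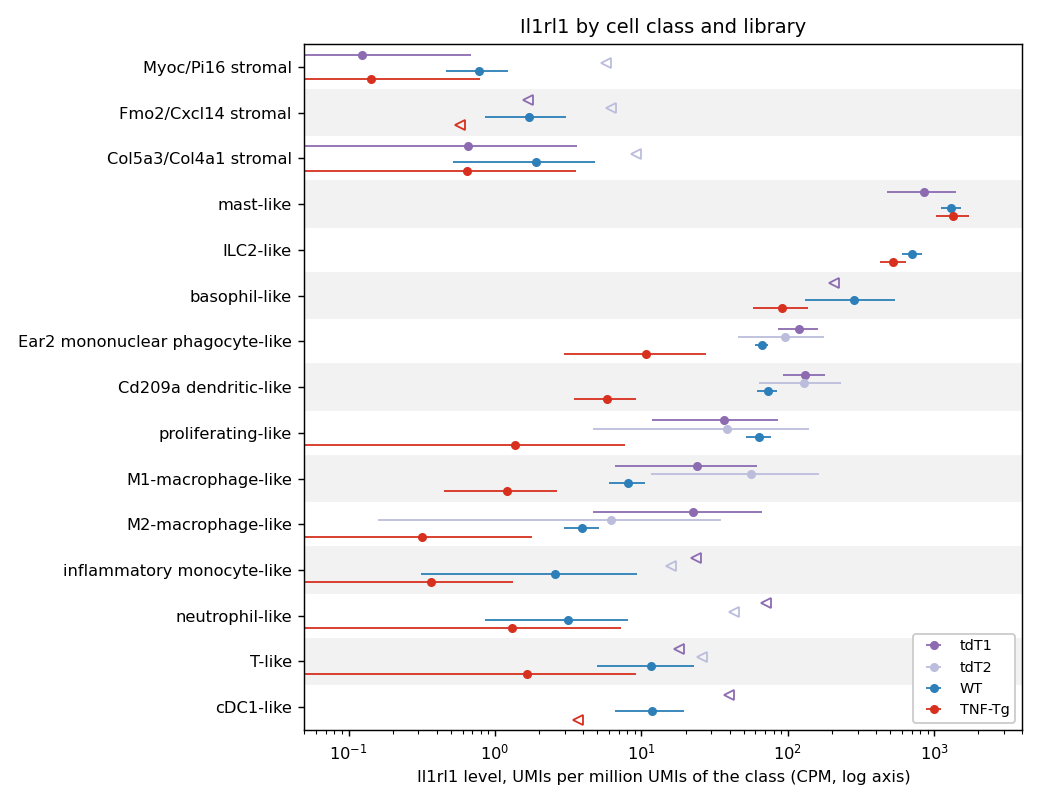
Il1rl1 in CPM on a log axis by cell class in tdT1, tdT2, WT and TNF-Tg, with points for summed counts, bars for 95% Poisson intervals and open triangles for the level that 3 UMIs would give where the count was 0. Sums of fewer than 5 cells are not drawn, mast-like and ILC2-like cells are highest in WT and TNF-Tg, and the Ear2 and Cd209a classes show WT above TNF-Tg.

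Il1rl1 was also found in mononuclear phagocytes, and there it was lower in TNF-Tg. In the Cd209a dendritic-like cells it stood at 131 CPM in tdT1, 128 CPM in tdT2, 72.6 CPM (62.0 to 84.6) in WT and 5.84 CPM (3.46 to 9.23) in TNF-Tg, with UMIs in 81 of 150 WT cells, against 16 of 249 TNF-Tg cells. The TNF-Tg level lay below those of the other 3 libraries and was 12.4-fold lower than in WT (log2 -3.64, interval -4.43 to -2.93). Once cells were thinned to 3000 UMIs, 18.8% of WT and 0 of 248 TNF-Tg cells held a UMI, from median depths of 15070 and 11978. In this class 7.56% of 8838 genes were at least 2-fold lower with an interval that left out 1.

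In Ear2 mononuclear phagocyte-like cells the levels were 119 CPM in tdT1, 95.3 CPM in tdT2, 66.6 CPM (60.1 to 73.7) in WT and 10.8 CPM (2.95 to 27.7) in TNF-Tg, the last on 4 UMIs in 24 cells. The log2 ratio was -2.62 (-4.51 to -1.26), and 4.06% of 9142 genes were as called lower. Proliferating-like cells had 63.6 CPM in WT and 1.38 CPM, or 1 UMI, in TNF-Tg, where 14.2% of genes were called lower. The levels of the Cd209a, Ear2 and proliferating classes in WT had overlapping intervals.

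Ear2, the leading gene of the Ear2 phagocytes, moved with these values. In the Cd209a class it stood at 246 CPM in WT, in 54.7% of cells, and at 9.09 CPM in TNF-Tg, in 6.02% of cells, and it was found in 61.2% of the WT proliferating-like cells and in 6.67% of those of TNF-Tg. In Cd209a cells without an Ear2 UMI, a split made after the values were seen, Il1rl1 stood at 56.1 CPM (41.9 to 73.6) in 68 WT cells and at 5.54 CPM (3.17 to 9.00) in 234 TNF-Tg cells. The corresponding levels were 101 and 60.1 CPM in tdT1 and tdT2. A count of 0 does not show that a cell lacks Ear2, and the part of Ear2 phagocytes and of doublets in the difference was not tested.

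Macrophages had little of the receptor. M1-macrophage-like cells had 8.05 CPM in WT against 1.22 CPM in TNF-Tg, and M2-macrophage-like cells 3.93 and 0.319 CPM, and 14.7% and 4.47% of genes were called lower in these classes. Free RNA of mast cells bears on such low values, since Mcpt4 was found in every class checked. Scaled by the Il1rl1 to Mcpt4 ratio of the mast-like cells, the Mcpt4 UMIs of the WT M2-macrophage-like cells would carry 20.6 Il1rl1 UMIs against 56 counted, and those of the M1-macrophage-like cells 9.43 against 50. In TNF-Tg the counts were 1 and 6, below the 6.19 and 7.95 so predicted, although Cpa3, another mast cell gene, predicted 2.96 and 2.22. In the WT Ear2, Cd209a and ILC2-like cells 6.12, 3.87 and 0.669 UMIs were predicted against 377, 165 and 160 counted. In the same classes of TNF-Tg, Mcpt4 predicted 0.251, 6.69 and 1.00 and Cpa3 0.370, 1.11 and 0.247, against 4, 18 and 99 counted. The part of free mast cell RNA in the ratios of these classes was not tested.

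In stromal cells Il1rl1 was sparse, and its counts were set beside the same kind of prediction from mast cell genes. Il1rl1 had a UMI in 30 of 2140 WT stromal cells (1.40%) and in 2 of 1119 TNF-Tg stromal cells, at median depths of 14984.5 and 11620 UMIs. In the WT Myoc/Pi16 cells 18 UMIs were counted and 28.8 predicted from Mcpt4, and in the Fmo2/Cxcl14 cells 11 and 12.3. Cpa3 predicted 19.1 and 7.71, Cma1 23.0 and 7.71, and Tpsb2 36.9 and 11.9. In TNF-Tg the counts were 1 and 0, against 9.62 and 8.87 predicted from Mcpt4 and 2.59 and 1.48 from Cpa3. Cma1 predicted 12.3 and 11.5 there, and Tpsb2 6.48 and 7.34. The part of free RNA of mast cells or of other classes in the stromal counts was not tested. Ligand and receptor were rarely seen in the same barcode, with 10 WT cells holding UMIs of both out of 499 with Il33 and 550 with Il1rl1, and 3 TNF-Tg cells out of 630 and 93. Among all cells, 10.0% in WT and 2.74% in TNF-Tg held Il1rl1.

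The receptor transcripts were distributed differently in the 2 conditions. In WT, Ear2 phagocytes held 32.0% of all Il1rl1 UMIs, Cd209a cells 14.0%, mast-like cells 13.9% and ILC2-like cells 13.6%. In TNF-Tg, ILC2-like cells held 42.9%, mast-like cells 26.8%, basophil-like cells 9.96%, Cd209a cells 7.79% and Ear2 phagocytes 1.73%. Over all cells the level was 17.1 CPM in WT against 6.15 CPM in TNF-Tg, 2.79-fold lower, and 9.93% of 14762 genes were called lower at that level. The number of cells of each class captured enters these values, since the scatter gate and 1 library per condition set it.

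Il1rap (ENSMUSG00000022514, chr16:26581704-26730117 of GRCm38, plus strand, 7 annotated transcripts) encodes the accessory chain that IL-33 shares with IL-1 and IL-36. It was found in 306 cells of tdT1, 29 of tdT2, 1005 of WT and 359 of TNF-Tg, in stromal cells and leukocytes alike. It was highest in neutrophil-like cells, at 190 CPM (82.1 to 375) in tdT1, 142 CPM (68.2 to 261) in tdT2, 211 CPM (186 to 238) in WT and 101 CPM (79.5 to 126) in TNF-Tg. TNF-Tg had the lowest value of the 4 libraries, but its interval overlapped those of tdT1 and tdT2. It was 2.09-fold lower than WT (log2 -1.07, interval -1.45 to -0.70), where 6.94% of 5075 genes were called lower. By WT level the Myoc/Pi16 cells followed among the classes of at least 20 cells and 20 Il1rap UMIs. That rule left out the WT mast-like cells, whose level was higher, at 71.7 CPM (32.8 to 136) on 9 UMIs.

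In Myoc/Pi16 cells Il1rap stood at 41.7 CPM in tdT1, 13.3 CPM in tdT2, 30.8 CPM (28.6 to 33.2) in WT and 19.5 CPM (16.4 to 23.1) in TNF-Tg. In Fmo2/Cxcl14 cells it stood at 26.5, 8.21, 15.5 (12.6 to 18.8) and 6.12 CPM (4.19 to 8.64) in the same order. The tdT+ replicates spanned the WT and TNF-Tg levels in Myoc/Pi16 cells, and in Fmo2/Cxcl14 cells they spanned that of WT while the TNF-Tg value lay below both. There the tdT2 value rested on 4 UMIs, and its interval (2.24 to 21.0) included that of TNF-Tg. TNF-Tg was 1.58-fold and 2.52-fold lower than WT, log2 -0.66 (-0.93 to -0.39) and -1.34 (-1.96 to -0.75). Of the 2 members measured in each class, Il1rap passed 2-fold in the Fmo2/Cxcl14 cells only, where 12% of 11019 genes were called lower, and there the log2 ratio was -0.25 (-0.95 to 0.40) in libraries merged without integration. The difference between these ratios was not tested.

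**Figure D5:**
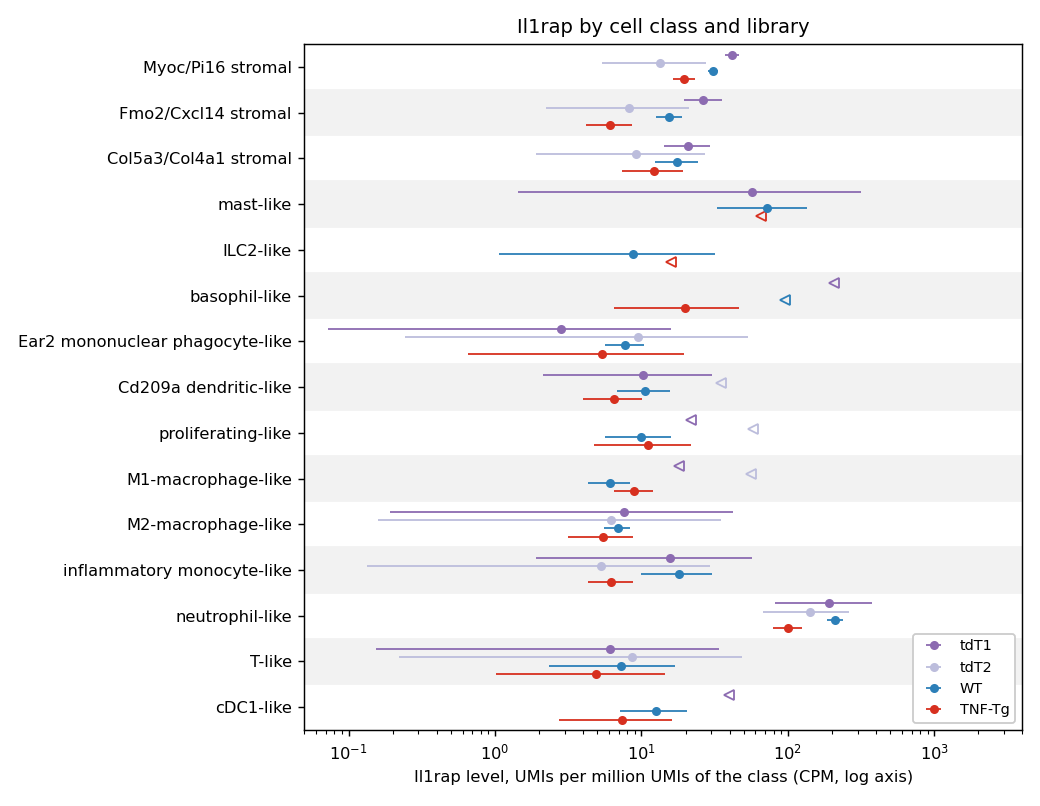
Il1rap in CPM on a log axis by cell class in tdT1, tdT2, WT and TNF-Tg, with points for summed counts, bars for 95% Poisson intervals and open triangles for the level that 3 UMIs would give where the count was 0. Neutrophil-like cells stand highest, at 211 CPM in WT against 101 CPM in TNF-Tg.

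Co-detection of both receptor chains was sparse in the receivers of WT and TNF-Tg. In ILC2-like cells Il1rap had 2 UMIs in WT (8.80 CPM) and 0 in TNF-Tg, where 3 UMIs would be 15.8 CPM. In tdT1 and tdT2 it was found in 2 of 3 and in 1 of 3 ILC2-like cells, on 3 and 1 UMIs (111 and 58.8 CPM). In mast-like cells Il1rap had 9 UMIs in WT (71.7 CPM) and 0 in TNF-Tg, where 3 UMIs would be 65.3 CPM. At this depth a level like that of macrophages, at 6.88 CPM in WT M2-macrophage-like cells, was not detectable in the ILC2-like cells of TNF-Tg. Of all cells with Il1rl1, 66 of 550 in WT and 2 of 93 in TNF-Tg also held Il1rap, as did 7 of 61 in tdT1 and 2 of 24 in tdT2. Among all cells of these libraries, in the same order, 18.3%, 10.6%, 20.3% and 6.39% held Il1rap.

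Across 51 sums of class and library and 11728 genes, the genes whose log2 level was most like that of Il33 were Pdpn, Serpinh1, Fkbp11, Tmem45a and Parva, with Pearson's r of 0.90, 0.89, 0.89, 0.89 and 0.89. The genes most like Il1rl1 were Chn2, Cd200r1, Tuba8, Rgs1 and Cd200r4, with r of 0.77, 0.76, 0.69, 0.68 and 0.67. The sums share libraries and classes, so these values are descriptions and carry no test.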

How the data were processed

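The deposited values were UMI counts for each gene in each cell. The authors made them with Cell Ranger (3.1.0 in the matrix header of tdT1, 6.0.1 in the other headers) on mm10, per the submitters' processing notes, and limited to called barcodes. They were not normalized. The genes and lists were chosen with earlier results of these data known. The 4 libraries were integrated in R 4.3.3 with Seurat 5.3.0 (canonical correlation anchors, 30 dimensions, resolution 0.5) on 1979 features, after 21 genes of the pathway had been left out of 2000, which gave 23 clusters and 22 classes. A cluster took a name from at least 3 fixed markers among its 50 genes of highest fold. This scoring, and the classes for doublets and for shallow or unnamed clusters, were chosen with the clusters in view. Scrublet in scanpy 1.11.5 predicted 4, 1, 138 and 72 doublets in tdT1, tdT2, WT and TNF-Tg. Clusters with at least 50% of them formed a class of their own, and other predicted doublets were kept.

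Levels were sums per class and library in CPM, with exact Poisson intervals. Shares had exact Clopper-Pearson intervals and ratios exact conditional binomial intervals (95%). Ratios over all genes needed 20 UMIs over both libraries, a call was a 2-fold difference, and the floor was 3 UMIs. UMIs were thinned to 3000 per cell, or 1000 for shallow classes. The named genes were the 3 members, members of the 5 lists past 2-fold, markers, and the 5 genes most correlated with Il33 and with Il1rl1, on log2(CPM + 1) in sums of at least 20 cells. Python 3.11.15 with numpy 2.4.6, scipy 1.17.1 and pandas 2.3.3 was used, TMM came from edgeR 4.0.16, and the ratio calls were tested on simulated data. Start sites and promoters came from GENCODE and RefSeq (GRCm38.p6).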

Additional observations from a re-analysis of the deposited data

How the results depend on the processing

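No paired analysis was possible because WT and TNF-Tg are single libraries, the tdT replicates have no counterpart there, and no result comes from a test. Of 217 values under alternative settings, 179 stayed within the spread or interval of the value reported, and 38 moved. Counts of genes were judged against a fixed fold band instead. The value of either tdT replicate always lies within the SD around their mean, so leaving a replicate out could not count as a move. Among the log2 ratios 4 values changed sign, all of them of Il1rl1 in mast-like cells, whose reported interval includes 0.

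The Il33 log2 ratio in Myoc/Pi16 cells was 1.38 at resolution 1.0, 0.71 in merged libraries, 2.35 as a mean over cells and 2.22 after thinning. That of Fmo2/Cxcl14 cells was 2.74 in merged libraries, that of Col5a3/Col4a1 cells 3.23 as a mean over cells, and that of all stromal cells 3.05 after thinning, an alternative chosen after seeing the data. The difference between the rises was 3.75 at resolution 1.0 and 2.63 after thinning.

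The stromal share of Il33 UMIs was 98.9% (WT) and 98.8% (TNF-Tg) without predicted doublets, and in TNF-Tg 97.5% when WT and TNF-Tg were integrated alone and 99.4% when merged. Thinning put the Il1rap ratio at -1.37 in Myoc/Pi16 and -1.46 in neutrophil-like cells, and merging put it at -0.25 in Fmo2/Cxcl14 cells. The Il1rl1 ratio of mast-like cells was 0.79 without doublets, 1.28 merged, 1.07 as a mean over cells and -1.66 after thinning, which left 6 WT and 3 TNF-Tg cells, while it was -0.10 without cells of high mitochondrial share or few genes, -0.21 under TMM and -0.26 under median-of-ratios scaling. The mast-like share of WT Il1rl1 UMIs was 10.7% without cells of high mitochondrial share or few genes, and that of Cd209a cells 12.0% when merged.

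With any gene of at least 1 UMI tested against the floor, 3295 genes were called higher in Myoc/Pi16 cells, and 1770 higher and 2573 lower in Fmo2/Cxcl14 cells. TMM scaling gave 735 higher and 937 lower there, against 464 and 1404. Leaving out a tdT replicate gave tdT+ means of 57.1 to 95.7 CPM in Myoc/Pi16 and 28.7 to 49.2 CPM in Fmo2/Cxcl14 cells. Apart from the settings' own construction, the cause of these moves was not tested.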

Other observations

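Il33 was also found in the few endothelial-like cells, a known source of the cytokine, at 22.3 CPM in 34 cells of tdT1, at 138 CPM on 2 UMIs in 7 cells of tdT2 and at 50.5 CPM on 3 UMIs in 6 cells of TNF-Tg, while 2 WT cells held 0 UMIs. These cells are too few to compare the conditions. In a cluster of shallow cells without a name, with median depths of 971.5 UMIs in WT and 904 UMIs in TNF-Tg, Il33 stood at 12.5 CPM in 350 WT cells and at 116 CPM in 87 TNF-Tg cells, on 7 and 16 UMIs.

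Il1rap was also seen in monocytes. Inflammatory monocyte-like cells had 18.1 CPM in 69 WT cells and 6.22 CPM in 499 TNF-Tg cells, or -1.54 on the log2 scale (-2.47 to -0.53). Patrolling monocyte-like cells had 15.3 CPM in 193 TNF-Tg cells, and M1-macrophage-like cells had 6.12 CPM in WT against 8.92 CPM in TNF-Tg (log2 0.54, interval -0.12 to 1.21).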
